A study of Mus musculus with 6 samples.

Results

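The genes described here are 8 components of extracellular purine handling and sensing, taken by symbol from the 23420 rows of a raw count table. They are *Entpd1*, *Nt5e* and *Ada*, which encode enzymes, *Adora2a* and *Adora2b*, which encode adenosine receptors, *P2rx4* and *P2rx7*, which encode ATP-gated channels, and *P2ry10*, which carries a P2Y name. All 8 had at least 10 counts over the 6 libraries and were among the 13682 genes tested. The libraries came from splenic B cells of 3 *Ahr*+/+ and 3 *Ahr*-/- samples of C57Bl/6J background. The aryl hydrocarbon receptor (AhR) is a ligand-dependent transcription factor, and *Ahr*-/- here is a deletion in the whole animal, from which the B cells were then isolated. The methods put the animals at over 8 weeks old, and the labels add no age for single samples. Cells of both genotypes were kept in culture for 8 h with anti-IgM at 10 μg/ml, which cross-links the B-cell receptor, and with IL-4 at 20 ng/ml, and both received the AhR ligand FICZ at 250 nM for the final 4 h. No unstimulated culture and no culture without FICZ was part of the comparison, so each difference is one between genotypes under full stimulation.

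ATP that leaves activated or damaged cells opens P2X channels on neighbouring cells and on the cell of origin. CD39, the product of *Entpd1*, strips phosphates from ATP and ADP to give AMP, and CD73, the product of *Nt5e*, converts AMP to adenosine. Adenosine signals through G protein-coupled receptors, of which those encoded by *Adora2a* and *Adora2b* raise cyclic AMP, and adenosine deaminase, the product of *Ada*, ends the signal by turning adenosine into inosine. In lymphocytes, CD39 and CD73 together are known for making adenosine that restrains immune responses, and lack of adenosine deaminase causes severe immunodeficiency. *P2ry10* belongs to the P2Y family by sequence, but its product responds to lysophosphatidylserine, a lipid, rather than to nucleotides.

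Total counts ran from 22095096 in *Ahr*-/- replicate 1 to 53648787 in *Ahr*-/- replicate 2. Values below are normalized counts, that is counts divided by the TMM-scaled library size relative to the mean of the 6 libraries, and 3 counts, the lowest level taken as measurable, correspond to 2.13 to 5.15 of them. These limits cover counting error only. *Ahr* itself had, counted over the whole gene, 12681, 12892 and 13953 normalized counts in *Ahr*+/+ libraries and 8856, 8949 and 9717 in *Ahr*-/- libraries (log2 fold change −0.52, adjusted p = 7.1e-06 by edgeR), so its transcript was lower but present, and a whole-gene count does not by itself check a deletion of part of the gene. *Cyp1a1*, a classical AhR target, had 4743 to 5404 raw counts against 4 to 7. Markers of B cells were abundant in every library, with 7 genes summing to between 85953 and 91405 normalized counts in *Ahr*+/+ and between 103729 and 110028 in *Ahr*-/-. Of the 7, 5 (*Cd79a*, *Cd79b*, *Fcer2a*, *Ms4a1* and *Pax5*) were called higher in *Ahr*-/-, with log2 fold changes from 0.26 to 0.65. Over all tested genes, 9.79% were called higher. The labels number the replicates without naming animals, and by the description of the experiment each replicate of a genotype was a separate mouse.

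None of the 8 genes lies on chromosome 12, where *Ahr* is. On GRCm38, *Entpd1* spans chr19:40612366-40741602, *Nt5e* chr9:88327197-88372092, *Ada* chr2:163726584-163750239, *Adora2a* chr10:75316877-75334784, *Adora2b* chr11:62248984-62266453 and *P2ry10* chrX:107088492-107104974. *P2rx7* (chr5:122643911-122691432) and *P2rx4* (chr5:122707544-122729738) are neighbours on the forward strand, 16111 bases apart, and all but *Ada* are annotated on the forward strand. No annotated gene overlaps any of them on the opposite strand, so a count made without regard to strand would not mix them with an antisense gene. Counts cover whole genes and do not separate isoforms.

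Because the comparison is one of cells with and without AhR, the windows around the annotated starts were searched for GCGTG, the core of the DNA element that AhR binds with its partner ARNT, on both strands. RefSeq windows of 300 bases on GRCm38.p6, from 250 before to 50 after a start, were at hand for 7 of the 8 genes, and *Adora2a* was not among them. The core was found for 4 of the 7 genes, against 35.2% of the 27025 genes with such a window. The following stretches, written 5′ to 3′ on the strand of the gene, show these matches with the core in capitals, or its reverse complement CACGC where the match is on the other strand.

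*Entpd1*, chr19:40612336-40612364: ctccttagcggcGCGTGgttcccgttacc

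*Nt5e*, chr9:88327459-88327487: tccctgcgggctGCGTGtgctgggccaga

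*Ada*, chr2:163750222-163750250: tctgtgggcgtaGCGTGggcggggctgtg

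*Adora2b*, chr11:62248930-62248958: cccccgtaaggcCACGCccccgcccccgt

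Counted from the RefSeq start as 0, the core begins at −18 in *Entpd1*, −138 in *Nt5e*, −42 in *Adora2b* and 1 in *Ada*, which holds a second core at 41. The RefSeq start of *Nt5e* lies downstream of the GENCODE start given above, so that this core is inside the GENCODE gene. The longer form TNGCGTG was found for *Ada* alone, and in 5.07% of all 32851 windows. The windows of *P2rx4*, *P2rx7* and *P2ry10* held no such letters. A match is one of letters and no measure of binding, and the genes with a core include some that were called changed and some that were not.

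Of the 8 genes, 5 had an adjusted p-value under 0.05 between genotypes by edgeR's quasi-likelihood test, where 17.9% of all tested genes did. *Adora2a*, *Adora2b* and *P2rx4* were called higher in *Ahr*-/- B cells, as were 9.79% of all tested genes. *Nt5e* and *P2ry10* were called lower, as were 8.13%. *Entpd1*, *Ada* and *P2rx7* did not pass. *Adora2b* had enough counts to be tested only through its *Ahr*-/- libraries. With at least 10 counts required in at least 3 libraries, it dropped out and 4 of 7 genes were called, 2 higher and 2 lower. Of all 11921 genes tested under that filter, 2400 were called. Genotypes did not overlap for 4 of the 8 genes, against 33.5% of all tested genes. The median log2 fold change was 0.07 over the 8 genes and 0.0022 over all genes tested. With 8 genes these shares describe the set and compare it with nothing else.

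**Figure D1:**
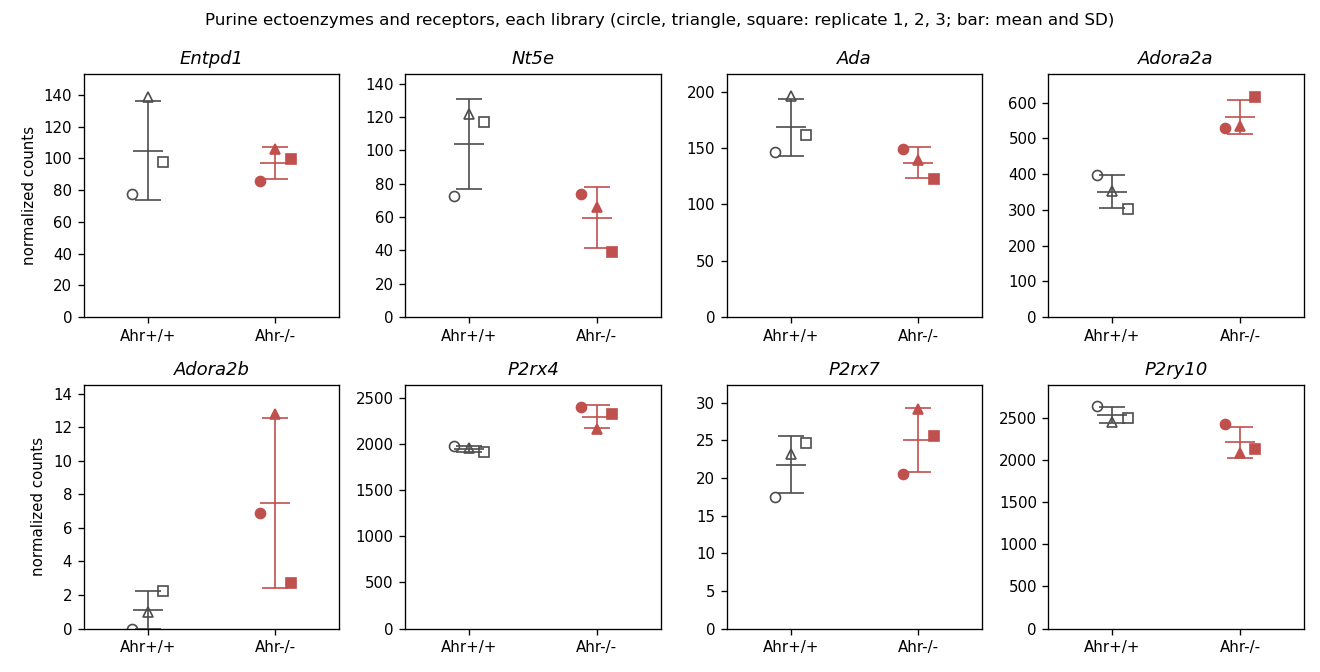
Normalized counts (y axis, linear from 0) of the 8 genes in each library, *Ahr*+/+ open and *Ahr*-/- filled, with a circle, triangle and square for replicates 1, 2 and 3 and bars showing mean and SD of 3 libraries. *Adora2a* and *P2rx4* separate upward and *P2ry10* separates downward in *Ahr*-/- libraries, while *Nt5e* overlaps between *Ahr*+/+ replicate 1 and *Ahr*-/- replicate 1.

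Among the 3 enzyme genes, *Nt5e* passed the test and *Entpd1* and *Ada* did not. The changes of *Nt5e* and *Entpd1* are compared below through their ratio, and whether that of *Ada* differs from either was not tested. *Nt5e* had 72.8, 122 and 117 normalized counts in *Ahr*+/+ replicates 1 to 3 and 73.8, 66.1 and 39.2 in *Ahr*-/- replicates 1 to 3. *Ahr*+/+ replicate 1 lay among the *Ahr*-/- libraries, so the genotypes overlapped. Means were 104 ± 26.9 and 59.7 ± 18.2 (SD, n = 3 libraries each), a log2 fold change of −0.82 (standard error, SE, 0.25, 95% interval −1.36 to −0.28, adjusted p = 0.038 from edgeR). An exact two-sided permutation test of the same values gave p = 0.2, where 0.1 is the smallest that 3 against 3 allow. The call did not hold when *Ahr*+/+ replicate 2 or 3 or *Ahr*-/- replicate 2 or 3 was left out (adjusted p = 0.14, 0.14, 0.058 and 0.094 from edgeR), while the log2 fold change stayed between −1.03 and −0.59.

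*Entpd1*, which acts one step earlier, had 77.7, 139 and 97.7 normalized counts in *Ahr*+/+ and 85.8, 106 and 99.4 in *Ahr*-/- libraries. The *Ahr*-/- values all fell within the range of the *Ahr*+/+ values. The difference was −0.09 on the log2 scale (SE 0.20, adjusted p = 0.81 from edgeR), and its 95% interval, from 0.698-fold to 1.27-fold, leaves room for moderate differences in either direction. Without *Ahr*+/+ replicate 2, the highest library, the sign turned, at 0.17.

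Since the enzymes work in sequence, the raw counts of *Nt5e* were also divided by those of *Entpd1* within each library, which needs no scaling factor. The ratio was 0.938, 0.877 and 1.20 in *Ahr*+/+ and 0.860, 0.624 and 0.394 in *Ahr*-/- libraries. Each *Ahr*-/- ratio was below each *Ahr*+/+ ratio, though 0.860 and 0.877 were close. Means were 1.00 ± 0.169 and 0.626 ± 0.233 (SD, n = 3 libraries each; exact two-sided permutation test of log2 ratios, p = 0.1, the smallest possible). This ratio was chosen after the values were seen.

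*Ada* had 147, 196 and 162 normalized counts in *Ahr*+/+ and 149, 139 and 122 in *Ahr*-/- libraries. The genotypes overlapped, with *Ahr*+/+ replicate 1 below *Ahr*-/- replicate 1. The log2 fold change of −0.31 (SE 0.14) had an unadjusted p of 0.047 and did not pass after adjustment over all genes (adjusted p = 0.16 from edgeR). The 95% interval ran from 0.655-fold to 0.996-fold.

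The adenosine receptor gene *Adora2a* rose in *Ahr*-/- B cells and had the smallest adjusted p of the 8. It had 397, 354 and 303 normalized counts in *Ahr*+/+ and 530, 535 and 615 in *Ahr*-/- libraries. Every *Ahr*-/- library was above every *Ahr*+/+ library, and the gap between the groups exceeded the range within either. The means, 352 ± 47.1 and 560 ± 48.0 (SD, n = 3 libraries each), differed by 0.67 on the log2 scale (SE 0.098, 95% interval 0.46 to 0.88, adjusted p = 3.6e-04 from edgeR), or 1.59-fold as a ratio of means. It was called in all 14 alternative fits, with log2 fold changes between 0.58 and 0.77. In ratios also chosen after the values were seen, *Adora2a* had 1.81 to 2.71 raw counts for each count of *Ada* in *Ahr*+/+ and 3.55 to 5.04 in *Ahr*-/- B cells, and 2.60 to 5.45 against 7.19 to 15.7 for each count of *Nt5e*.

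*Adora2b*, the low-affinity counterpart, was at the edge of detection. It had 0, 1 and 2 raw counts in *Ahr*+/+ libraries and 4, 18 and 3 in *Ahr*-/- libraries, so that no *Ahr*+/+ library and only *Ahr*-/- replicates 1 and 2 exceeded 3 counts. The groups did not overlap. Pooled, 25 counts stood against 3, a depth-corrected ratio of 7.87 with an exact 95% counting interval of 2.40 to 40.7. *Adora2b* met the filter of at least 10 counts over the 6 libraries only through the *Ahr*-/- libraries, so being tested depended on the group where it was high. The difference passed the test (fitted log2 fold change 2.80, SE 0.85, adjusted p = 0.040 from edgeR), but *Ahr*-/- replicate 2 held most of the counts. Without it the ratio was 4.05 with an interval of 0.924 to 24.3, and the adjusted p was 0.28 from edgeR. The call was lost when any library other than *Ahr*-/- replicate 3 was left out, and also with the replicate number as a block (adjusted p = 0.058 from edgeR). With a prior count of 2 the fitted log2 fold change was 1.71.

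Of the remaining adenosine receptors, named after their values were seen, *Adora3* had 4 to 11 raw counts in each library and *Adora1* had none. *Adora2a* was the one adenosine receptor gene that exceeded 18 counts in a library, in both genotypes. *Adora2a* is also expressed in T cells, dendritic cells and macrophages, and *Adora2b* in macrophages.

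Most genes that mark dendritic cells were higher in *Ahr*-/- libraries beside *Adora2a* and *Adora2b*. Over all tested genes, 9.79% were called higher and 8.13% lower. Of 8 markers of conventional dendritic cells 5 were called higher and 1, *Zbtb46*, lower. The 8 summed to between 826 and 955 normalized counts in *Ahr*+/+ and between 944 and 1132 in *Ahr*-/-, which overlap. Without *Zbtb46*, which had the most counts and went the other way, the sums were 289 to 375 and 520 to 695. Of 9 markers of plasmacytoid dendritic cells 7 were called higher and 1, *Tcf4*, lower, against the same shares. All 9 summed to between 10792 and 11668 in *Ahr*+/+ and between 9555 and 10212 in *Ahr*-/-, lower in the latter, while without *Tcf4*, which had the most counts, the sums were 3583 to 4135 and 4730 to 5792, higher in the latter. Of the 8 macrophage and monocyte markers in the table *Cd14* was higher and *Emr1* lower, the latter at a mean of 649.7 against 54.1 normalized counts. The sums of the 8 overlapped, at 1261 to 1671 and 752 to 1329. Without *Cd68*, which had the most counts, they were 847 to 1223 and 371 to 936, which also overlap. None of these markers was at 0 in all libraries. Their part in the rise of *Adora2a* and *Adora2b* was not tested, and in bulk RNA fewer cells of a type and less RNA per cell cannot be told apart.

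T cells also carry CD73, and 2 of the 8 T-cell markers, *Cd28* and *Cd3e*, were called lower in *Ahr*-/- libraries and none was called higher. Over all tested genes, 8.13% were called lower and 9.79% higher. The 8 summed to between 6056 and 6475 normalized counts in *Ahr*+/+ and between 6053 and 6964 in *Ahr*-/- libraries, and without *Lck*, which had the most counts, to between 226 and 367 and between 216 and 227. Both pairs of ranges overlap. Of the 5 markers of plasma cells in the table, *Igj* and *Prdm1* were lower and *Xbp1* was higher, with overlapping sums of 14212 to 20220 and 13376 to 15019. Without *Xbp1*, which had the most counts, the sums were 6901 to 12508 and 4589 to 5965, lower in *Ahr*-/- without overlap. No marker of regulatory T cells was called. The part of all these markers in the lower *Nt5e* was not tested. T cells also express *Adora2a*, which was higher while these 2 T-cell markers were lower, and their part in its level was not tested.

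Other markers moved with genotype beside *Adora2a*, *Adora2b* and *Nt5e*, where 9.79% of all tested genes were called higher and 8.13% lower. Of 5 NK-cell markers, *Klrb1c* (log2 fold change 0.92, adjusted p = 0.028 from edgeR) and *Ncr1* (0.98, adjusted p = 0.049 from edgeR) were called higher and none was called lower. The 5 summed to between 189 and 322 normalized counts in *Ahr*+/+ and between 303 and 479 in *Ahr*-/- libraries, which overlap. Without *Gzma*, which had the most counts, the sums were 100 to 179 and 174 to 263, which also overlap. Of 6 marginal zone B-cell markers, *Dtx1* (−1.75) and *Cd9* (−1.17) were lower and *Plac8* (1.23), *S1pr3* (0.42) and *Cr2* (0.25) were higher, and the 6 summed to between 33497 and 36636 and between 31788 and 34609, which overlap. Without *Cr2*, which had the most counts, the sums were 16496 to 18421 and 12051 to 13820. Of 5 markers of B1 cells, *Ctla4* (−1.33) and *Bhlhe41* (−0.67) were lower and *Cd5* (1.35) was higher, with overlapping sums of 1795 to 2107 and 1776 to 1877. Without *Spn*, which had the most counts, they were 1133.5 to 1277.8 and 1090.5 to 1247.7, which also overlap. None of these markers was at 0 in all libraries, and their part in the changes of the 3 genes was not tested.

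**Figure D2:**
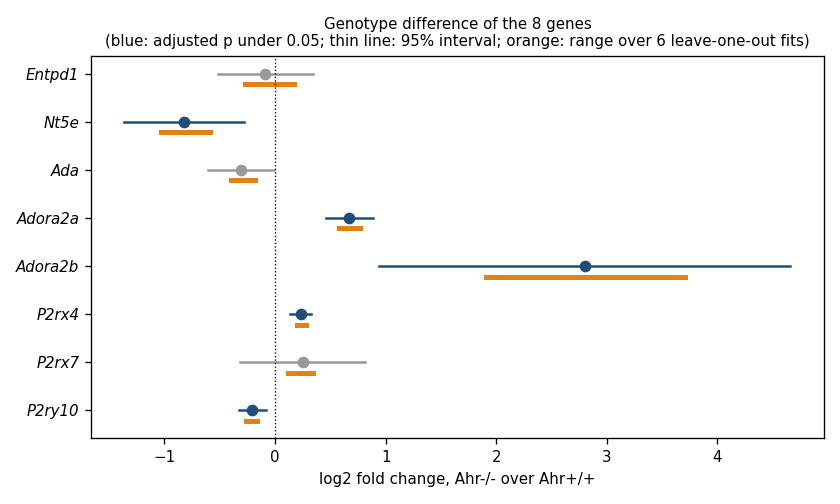
Log2 fold change of *Ahr*-/- over *Ahr*+/+ (x axis) for the 8 genes with the 95% interval from edgeR (thin line, blue where the adjusted p-value was under 0.05 and grey otherwise) and, in orange, the range over the 6 fits that each leave out 1 library. *P2rx4* and *P2ry10* have narrow intervals near 0 on opposite sides, and *Adora2b* has the widest, from 0.94 to 4.66.

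*P2rx4*, one of the pair of ATP-gated channel genes, had 1974, 1952 and 1908 normalized counts in *Ahr*+/+ and 2396, 2155 and 2323 in *Ahr*-/- libraries. The *Ahr*+/+ libraries were nearly identical, with a coefficient of variation of 1.72%, and all *Ahr*-/- libraries lay above them. *P2rx4* rose by a log2 fold change of 0.23 (SE 0.045, 95% interval 0.13 to 0.33, adjusted p = 0.0030 from edgeR), a 1.18-fold difference of means. It was called in all 14 alternatives, with values between 0.20 and 0.28. The part of the higher B-cell markers, *Cd79a* and *Ms4a1* at 0.26 among them, in this difference was not tested.

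*P2rx7*, whose channel responds to high concentrations of ATP, had 17.5, 23.1 and 24.7 normalized counts in *Ahr*+/+ and 20.6, 29.1 and 25.5 in *Ahr*-/- libraries. The groups overlapped. The fitted difference was 0.25 on the log2 scale (SE 0.26, adjusted p = 0.57 from edgeR), but at 12 to 41 raw counts per library the 95% interval, 0.806-fold to 1.76-fold, was wide. Each count of *P2rx7* came with 91.5 ± 18.9 counts of *P2rx4* in *Ahr*+/+ libraries and with 93.8 ± 21.3 in *Ahr*-/- libraries (SD, n = 3 libraries each; exact two-sided permutation test, p = 0.9). A different change in these neighbouring genes was not detectable at this depth. A short microRNA gene, *Mir8115*, lies in an exon of *P2rx7*.

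*P2ry10* had 2644, 2454 and 2501 normalized counts in *Ahr*+/+ and 2423, 2087 and 2126 in *Ahr*-/- libraries. All *Ahr*-/- libraries were lower than all *Ahr*+/+ libraries, by a small margin for *Ahr*-/- replicate 1. *P2ry10* fell by 0.20 on the log2 scale (SE 0.055, 95% interval −0.32 to −0.08, adjusted p = 0.022 from edgeR), and the call was lost without *Ahr*+/+ replicate 1 or 3 or *Ahr*-/- replicate 2 (adjusted p = 0.085, 0.055 and 0.14 from edgeR). It is followed on the X chromosome by 2 related receptor genes on the same strand, the cluster ending at position 107296769.

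*Gpr174*, the last gene of that cluster and also a lysophosphatidylserine receptor gene, had 3622, 3278 and 3629 normalized counts in *Ahr*+/+ and 2164, 2086 and 1854 in *Ahr*-/- libraries. The groups were far apart. It fell by 0.79 on the log2 scale (SE 0.059, adjusted p = 1.2e-06 from edgeR), and it was called in each alternative fit run at 0.05. Between *P2ry10* and *Gpr174* lies *P2ry10b*, listed in the table as *A630033H20Rik* and named after its values were seen, with 238, 244 and 240 normalized counts against 225, 197 and 204. All 3 *Ahr*-/- values were lower, but the log2 fold change of −0.22 did not pass (adjusted p = 0.14 from edgeR). Reads of *P2ry10* and *P2ry10b*, which are related in sequence, could have been shared between them in counting. *Gpr34*, a lysophosphatidylserine receptor gene outside this cluster, had 2 to 7 raw counts per library. *Xist*, which is transcribed from an inactive X chromosome, had 5 to 11 raw counts in every library and did not pass. The Y-linked *Ddx3y* had 3918 to 8225 raw counts and was called lower in *Ahr*-/- (log2 fold change −0.21, adjusted p = 0.0097 from edgeR).

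Levels of different genes were compared as RPKM, here counts per kilobase of annotated exon scaled to the TMM-adjusted library size. On this scale the order of the 8 genes in *Ahr*+/+ B cells was *P2ry10* at 22.1, *P2rx4* at 7.20, *Adora2a* at 2.99, *Ada* at 2.19, *Entpd1* at 0.488, *Nt5e* at 0.314, *P2rx7* at 0.0949 and *Adora2b* at 0.0153. The order was the same in *Ahr*-/- B cells, at 19.3, 8.49, 4.76, 1.78, 0.452, 0.181, 0.109 and 0.105, where *Nt5e* overlapped with *P2rx7* and *P2rx7* with *Adora2b*. In *Ahr*+/+ libraries *Adora2a* (2.58 to 3.38) and *Ada* (1.91 to 2.55) were adjacent without overlap, and *Entpd1* (0.362 to 0.647) and *Nt5e* (0.220 to 0.368) overlapped. In *Ahr*-/- libraries both of these pairs were clearly apart. *P2ry10* stood at the 79.9th percentile of tested genes of known length and *P2rx4* at the 59.4th, while *Nt5e* was at the 20.5th and *Adora2b* at the 11.2th.

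**Figure D3:**
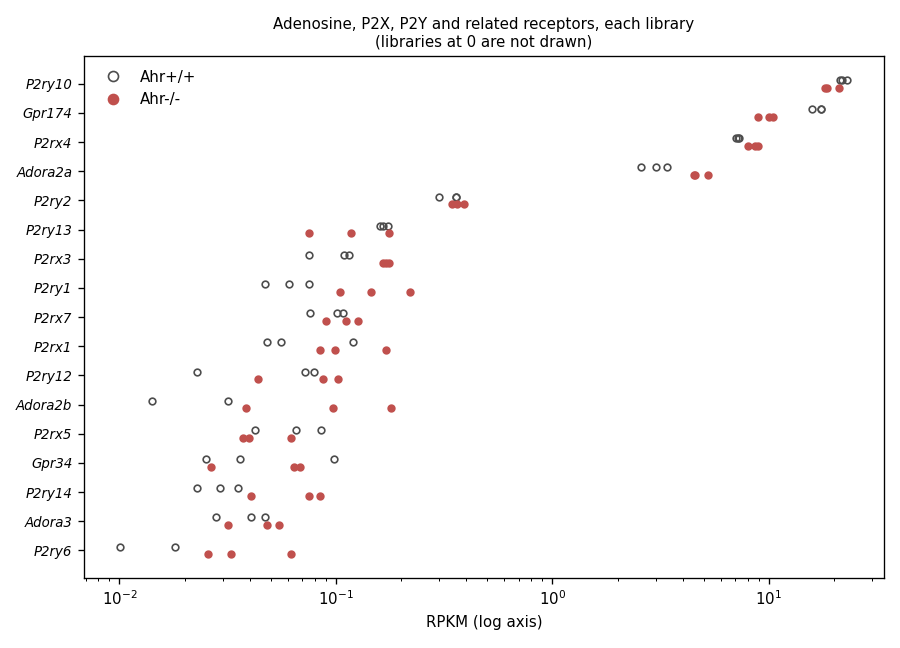
Level of the tested purine and related receptor genes in each library, except *A630033H20Rik*, for which no exon length was at hand, as RPKM on a log axis (libraries at 0 not drawn), for *Ahr*+/+ (open) and *Ahr*-/- (filled). *P2ry10*, *Gpr174*, *P2rx4* and *Adora2a* stand above 2 in every library, and all other receptors drawn, *P2rx7* and *Adora2b* among them, stay below 1.

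Beyond the 8 genes, 85 other genes of purine handling and signalling were looked up, of which 83 were in the table and 68 were tested. Of these, 12 were higher and 4 lower in *Ahr*-/- B cells, which is 23.5% of those tested against 17.9% of all tested genes, and genotypes did not overlap for 31 of the 68, against 33.5% of all tested genes. The median log2 fold change was 0.06. With *Ahr*+/+ replicate 2 or *Ahr*-/- replicate 2 left out, 10 were called, and without *Ahr*-/- replicate 3, 22 were.

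*Dpp4* encodes CD26, a peptidase of the cell surface that binds adenosine deaminase in humans, a binding that mouse CD26 lacks. It rose from 290 ± 42.3 to 488 ± 91.3 normalized counts (SD, n = 3 libraries each), a rise of 0.73 on the log2 scale (SE 0.13, adjusted p = 0.0019 from edgeR), without overlap. *Alpl*, an ectophosphatase that can dephosphorylate AMP, had a log2 fold change of 0.34 (adjusted p = 0.0029 from edgeR). It was the 1 of 5 tested genes among the remaining surface or secreted nucleotidases to be called, a share of 20% that is close to the 17.9% over all tested genes. Of 16 intracellular enzymes of adenosine and purine salvage 3 were higher and none was lower, a called share of 18.8% that is close to the 17.9% over all tested genes. *Adk*, which phosphorylates adenosine, had a log2 fold change of 0.22 (adjusted p = 0.0094 from edgeR), and its call was lost without *Ahr*-/- replicate 2 (adjusted p = 0.051 from edgeR). *Ahcy* and *Pnp* were at 0.12 and 0.15 (adjusted p = 0.043 and 0.046 from edgeR), and each call was lost in 5 of 6 fits that left out a library. None of 3 intracellular relatives of *Entpd1* was called.

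Of 6 nucleoside transporters 1 was called higher and 1 lower, as were 9.79% and 8.13% of all tested genes. The lysosomal transporter gene *Slc29a3* was higher (log2 fold change 0.32, adjusted p = 6.4e-05 from edgeR) and *Slc29a4* lower (−0.65, adjusted p = 0.027 from edgeR), the latter from 59.9 to 38.4 normalized counts and lost in 5 of 6 fits that left out a library. *Slc29a1*, at means of 4324 and 4627 normalized counts, did not pass, although the genotypes did not overlap (adjusted p = 0.12 from edgeR). Of 3 genes of ATP release 1 was higher, against the same 9.79%. This was *Slc17a9*, the vesicular nucleotide transporter, which was higher by 0.16 on the log2 scale (adjusted p = 0.023 from edgeR) and lost without *Ahr*+/+ replicate 2 or 3 or *Ahr*-/- replicate 3.

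Among the remaining nucleotide receptors, none of 3 tested P2X genes was called, and 2 of 6 P2Y genes were called higher. Of all tested genes 17.9% were called, and 9.79% were called higher. *P2ry1*, a receptor for ADP, had 7.77, 10.1 and 12.4 normalized counts in *Ahr*+/+ and 24.0, 36.3 and 17.3 in *Ahr*-/- libraries (log2 fold change 1.40, SE 0.36, adjusted p = 0.017 from edgeR). *P2ry14*, a receptor for UDP-sugars, had 9.71, 15.1 and 12.4 against 36.0, 32.0 and 17.3 (log2 fold change 1.16, SE 0.34, adjusted p = 0.034 from edgeR). Both had few counts, and their calls were lost in 3 and 5 of the 6 fits that left out a library, each time including the fit without *Ahr*-/- replicate 2. Of the dendritic-cell markers given above, most were higher in the same libraries, and their part was not tested.

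Downstream of the adenosine receptors, 2 of 15 genes of cyclic AMP signalling were called, both phosphodiesterases that break down cyclic AMP, in opposite directions. This is 13.3% of the list, below the 17.9% over all tested genes. *Pde4b* had 3131, 3174 and 2966 normalized counts in *Ahr*+/+ and 1459, 1425 and 1369 in *Ahr*-/- libraries, with a wide gap between groups. It fell by 1.13 on the log2 scale (SE 0.043, adjusted p = 2.3e-09 from edgeR). *Pde4a* rose from 208 ± 31.6 to 320 ± 12.4 (SD, n = 3 libraries each; log2 fold change 0.61, adjusted p = 0.0016 from edgeR). Adenylyl cyclase genes, *Gnas*, the catalytic and regulatory protein kinase A genes, *Creb1* and *Crem* did not pass.

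Downstream of P2X7, 3 of 6 genes of the inflammasome and shedding list were called, against 17.9% of all tested genes. *Casp1*, the protease that matures interleukin-1β, had 1809, 1736 and 1874 normalized counts in *Ahr*+/+ and 1234, 1196 and 1223 in *Ahr*-/- libraries (log2 fold change −0.57, SE 0.044, adjusted p = 1.8e-06 from edgeR). *Il1b* itself went the other way, at 19.4, 41.3 and 22.5 against 189, 102 and 59.3 (log2 fold change 1.99, SE 0.40, adjusted p = 0.0037 from edgeR, up to 0.070 over 8 alternatives), as did the adaptor *Pycard* at 0.33 (adjusted p = 0.015 from edgeR), which was lost without *Ahr*+/+ replicate 1 or 3 or *Ahr*-/- replicate 2. *Il1b* is made mainly by myeloid cells. Of 8 macrophage and monocyte markers, *Cd14* was higher with a log2 fold change of 1.64 (adjusted p = 0.030 from edgeR) and *Emr1* was lower at −3.60 (adjusted p = 2.9e-09 from edgeR). The other 6 did not pass, with *Cd68* at −0.17 and the remaining 5 between 0.60 and 1.33. Their part in the level of *Il1b* was not tested.

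**Figure D4:**
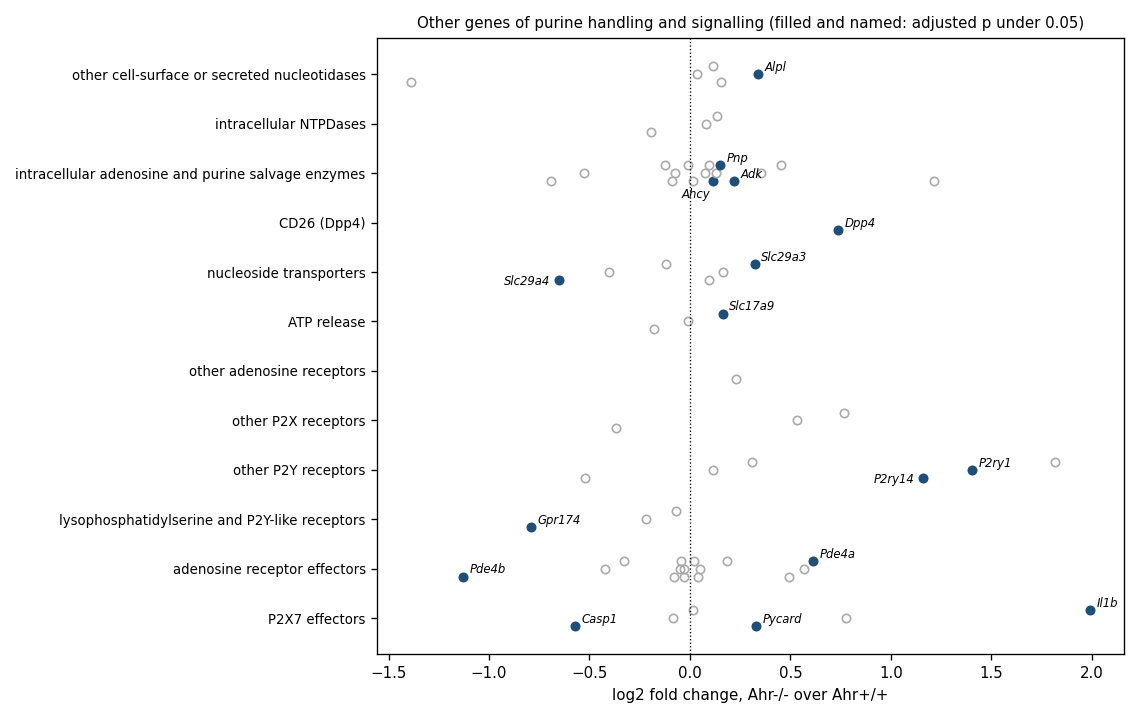
Log2 fold change of *Ahr*-/- over *Ahr*+/+ (x axis) for the 68 tested genes of purine handling and signalling outside the 8, grouped by list, filled and named where the adjusted p-value was under 0.05. Among the 16 called genes the values run from −1.13 for *Pde4b* to 1.99 for *Il1b*.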

How the data were processed

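Splenic B-cell RNA from 3 *Ahr*+/+ and 3 *Ahr*-/- samples was sequenced from stranded mRNA libraries. The authors deposited raw counts per gene symbol for each library, which were used here. The submitters' processing notes name TopHat2, HTSeq, DESeq and mm10 without roles or settings, so whether strand was used is unknown. A table of normalized values and a table of the authors' own comparison (means, fold changes, p-values) were not used. Genes with at least 10 counts over 6 libraries were tested in R 4.3.3 with edgeR 4.0.16 (TMM, quasi-likelihood, genotype as the only term, prior count 0.125), Benjamini-Hochberg adjustment over all 13682 genes and a threshold of 0.05. The standard error is the log2 fold change divided by the square root of F. Single values were compared by exact permutation of the libraries. In a test on simulated counts for 13561 genes, 200 of 200 changed genes were recovered with 16 false calls (7.41%, above the threshold of 0.05). Far fewer genes were changed there than the 2453 called in the data. These figures therefore do not give the share of true or false calls among the genes reported here. Positions and exon lengths are from GENCODE M21, promoter windows from RefSeq (GRCm38.p6). The members, the other purine genes, grouped into lists by role, and the markers were chosen with earlier results of these data known. From those lists, a gene was named if called and averaging 10 or more normalized counts in whichever genotype was higher; *Adora1*, *Adora3*, *Gpr34*, *A630033H20Rik*, *Slc29a1*, *Gnas*, *Creb1*, *Crem*, *Xist*, *Ddx3y*, *Cyp1a1* and the cell markers fall outside that rule. Alternatives were DESeq2 1.42.0 (its size factors, its Wald test), library size alone, other filters, a robust fit, a replicate block, a prior count of 2, a threshold of 0.01 and leaving out each library.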

Additional observations from a re-analysis of the deposited data

How the results depend on the processing

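At a threshold of 0.01, 2 of the 8 genes (*Adora2a* and *P2rx4*), 9 of the 68 other purine genes and 1473 of all genes were called, against 5, 16 and 2453 at 0.05. With 1 library left out, 2 to 4, 10 to 22 and 1664 to 2601 were called. The log2 fold change then lay between −0.27 and 0.17 for *Entpd1*, which turned sign without *Ahr*+/+ replicate 2. It lay between −1.03 and −0.59 for *Nt5e*, between 1.90 and 3.71 for *Adora2b* and between −0.27 and −0.16 for *P2ry10*, each with lost calls. With a prior count of 2 it was 1.71 for *Adora2b*. The cause was not tested. *Adora2b* was not tested with at least 10 counts required in 3 libraries, and DESeq2 gave it no adjusted p. *Adora2a* and *P2rx4* were called, and *Ada* and *P2rx7* were not, in all 14 fits. Labels do not say that equal replicate numbers were paired, and deviations from the genotype means of same-numbered libraries correlated at −0.11, 0.20 and −0.16. Those of libraries with unlike numbers correlated at −0.30 to 0.31. With the number as a replicate block, 2303 genes and 4 of the 8 were called, and *Adora2b* had 2.68 (adjusted p = 0.058 from edgeR). The few counts of *Adora2b*, *P2rx7*, *P2ry1* and *P2ry14* limit what can be resolved.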
